A study of Mus musculus with 8 samples.

Results

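The mouse phospholipase C isoforms examined here were 9 genes, Plcb1, Plcb2, Plcb3, Plcb4, Plcg1, Plcg2, Plcd1, Plcd3 and Plce1, of 55359 genes in the table of the series. They were taken by gene name, and the family was selected on its expression in the comparison of cell lines with primary cells, because Plcb4 was nearly missing in both lines. The values of the members in that comparison are therefore given as a description with no p, and the calls among them are counted once, with nothing read from them. RNA was sequenced from 8 untreated cultures of peritoneal mast cells (PMCs), the connective tissue type of mast cell, enriched from the peritoneum of wild-type mice of a mixed C57BL/6 and 129/Sv background. There were 6 cultures of primary WT PMCs, 3 female and 3 male, labelled as biological replicates, and 1 culture each of PMC-306 and PMC-303, lines that arose spontaneously from such cells and whose sex the labels call not applicable. The karyotype of PMC-306 was male according to the authors. The animals' age was not given in the sources used here. All cultures received IL-3 and stem cell factor (SCF), and both lines were kept with less serum and less SCF than the primary cells, so that medium and transformation cannot be told apart. Each line was 1 library, and where nothing links the primary cultures to separate animals beyond the label, the spread between them may be partly technical.

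Phospholipase C enzymes cut the membrane lipid PIP2 into inositol trisphosphate (IP3), which releases calcium from the endoplasmic reticulum, and diacylglycerol (DAG), which recruits protein kinase C. The β enzymes are switched on by G protein-coupled receptors, through Gαq family or Gβγ subunits. The γ enzymes are recruited and phosphorylated by tyrosine kinases, in mast cells after engagement of the IgE receptor FcεRI or the SCF receptor KIT. The δ enzymes respond mainly to calcium, and the ε enzyme to small GTPases such as Ras.

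The libraries held between 15918757 and 24180226 estimated counts, and levels are given as CPM, counts divided by the scaled size of the library, so that 3 counts correspond to between 0.123 and 0.187 CPM. The summed level of 10 mast cell markers was 43742 CPM in PMC-303 and 40506 in PMC-306 and ranged from 46966 to 73595 CPM in the primary cultures. None of the 10 was under 1 CPM in a line. Cpa3 was the highest of the 10 in the lines and in the primary mean, so that it weighs most in this sum. Summed markers of B cells, T cells and neutrophils and of mesothelial cells with fibroblasts stayed at or below 0.409 CPM in each culture, and those of eosinophils and basophils at or below 3.78 CPM. The 7 macrophage markers summed to 5.78 to 64.6 CPM in the primary cultures, to 2.43 CPM in PMC-303 and to 427 CPM in PMC-306, but 5 of the 7 stayed under 1 CPM in every culture. Adgre1 alone gave 426 CPM of the sum in PMC-306, where Lyz2 was at 1.13 CPM. Lyz2 reached 18.0 CPM in female primary culture 2. C1qa, C1qb, C1qc, Csf1r and Cd14 were each at or below 0.255 CPM in all 8 cultures. In PMC-303 the 4 Y-linked genes measured stood at 0.977% to 1.55% of their male primary mean.

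Of the 9 isoforms, 6 were expressed in the primary cultures. On the TPM scale, which corrects for transcript length and allows levels of different genes to be compared, Plcg1, the γ enzyme of many receptor tyrosine kinase pathways, was the most abundant at 109 ± 20.1 TPM (SD, n = 6). Plcb2, the β enzyme typical of blood cells, followed with 54.0 ± 5.11 TPM, and Plcg2, the γ enzyme typical of B cells and myeloid cells, with 36.3 ± 3.65 TPM. Plcb3 reached 18.3 ± 1.94 TPM, Plcb1 11.1 ± 2.97 TPM and Plcb4 8.84 ± 4.37 TPM. The ranges of Plcg1, Plcb2, Plcg2 and Plcb3 over the 6 cultures were separate from each other. Those of Plcb1, from 6.96 to 14.1 TPM, and Plcb4, from 6.37 to 17.6 TPM, overlapped, and the highest Plcb4 value also lay within the range of Plcb3, from 15.3 to 21.1 TPM. The other 3 members, Plcd1, Plcd3 and Plce1, were at 5 counts or fewer in each primary culture.

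**Figure D1:**
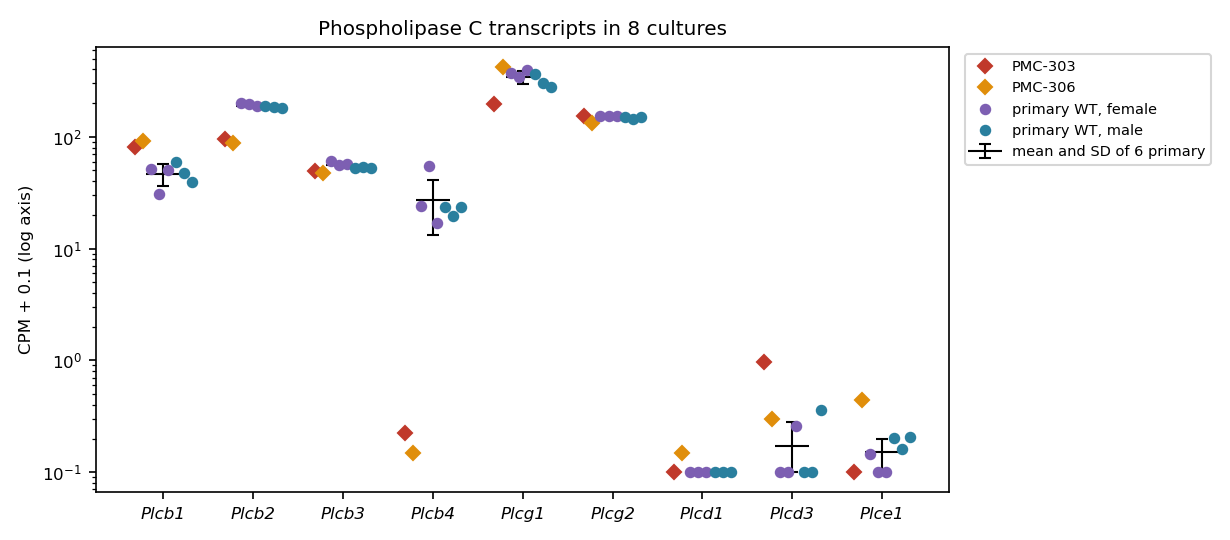
Level of each phospholipase C isoform in 8 cultures, as CPM + 0.1 on a log axis, with 1 point per culture and the mean and SD of the 6 primary cultures in black. Plcb4 lies near the floor of the axis in PMC-303 and PMC-306 and from 16.8 to 54.3 CPM in primary cells, whereas Plcg2 lies between 133 and 155 CPM in all 8.

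Plcb4 encodes a β isoform coupled to Gαq that is best known from the cerebellum and retina. It lies on the forward strand of chromosome 2, from 135500926 to 135856870 in GRCm39, downstream of Plcb1 at 134627987 to 135317178 on the same strand. The bases before the annotated starts of Plcb4, Plcb1 and Plcb2, the members that differed most between lines and primary cells in both lines, are shown because the mast cells differed in transcripts of these genes. Each run holds 250 bases from GRCm39, 5′ to 3′ on the strand of the gene, ends 1 base before the annotated start, and contains no annotated exon of GENCODE release M39. CG dinucleotides, the sites of DNA methylation, are in capitals.
Plcb4 outermost start, chr2:135500676-135500925, forward strand: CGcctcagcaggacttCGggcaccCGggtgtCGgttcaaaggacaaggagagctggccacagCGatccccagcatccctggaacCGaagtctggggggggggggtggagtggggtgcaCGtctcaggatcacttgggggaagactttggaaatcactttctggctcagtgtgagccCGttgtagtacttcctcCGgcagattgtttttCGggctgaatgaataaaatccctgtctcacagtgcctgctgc
Plcb4 exon start shared by 3 transcripts, chr2:135583500-135583749, forward strand: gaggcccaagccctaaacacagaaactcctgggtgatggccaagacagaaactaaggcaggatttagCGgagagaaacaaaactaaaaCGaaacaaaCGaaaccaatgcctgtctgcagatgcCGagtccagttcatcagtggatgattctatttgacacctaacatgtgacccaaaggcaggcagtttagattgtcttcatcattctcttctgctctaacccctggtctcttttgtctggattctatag
Plcb1 start, chr2:134627737-134627986, forward strand: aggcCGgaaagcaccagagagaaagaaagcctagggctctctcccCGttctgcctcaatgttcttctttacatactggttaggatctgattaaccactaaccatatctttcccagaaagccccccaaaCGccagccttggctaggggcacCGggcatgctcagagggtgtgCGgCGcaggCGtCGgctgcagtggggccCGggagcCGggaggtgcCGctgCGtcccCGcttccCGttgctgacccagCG
Plcb2 start, chr2:118559112-118559361, reverse strand: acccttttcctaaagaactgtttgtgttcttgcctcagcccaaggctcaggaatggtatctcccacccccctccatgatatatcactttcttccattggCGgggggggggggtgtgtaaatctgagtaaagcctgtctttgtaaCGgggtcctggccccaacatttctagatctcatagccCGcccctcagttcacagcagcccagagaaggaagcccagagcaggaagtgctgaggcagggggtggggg
The window before the outermost Plcb4 start held 10 CG dinucleotides. The median over the windows before the canonical transcripts of 14454 genes tested was 11. Neither Plcb4 window lies before the canonical Plcb4 transcript, which begins at 135647468, so that the comparison is not of like starts. The transcript of the outermost start was not among the Plcb4 transcripts counted in this series. The window before the shared Plcb4 exon held 4, more than in 18.1% of those windows. In 10 other annotated Plcb4 transcripts the exon that begins there is a later one. This window therefore need not lie before a start of transcription. The Plcb1 window held 15, more than in 62.7%, and the Plcb2 window held 3, more than in 12.8%. The motif GATAA, read on both strands, is the core bound by GATA factors. It occurred in none of these 4 windows and in 19.3% of all windows. This says only that these letters are not in these windows, and no measurement of methylation or binding was used.

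Plcb4 transcripts were nearly lost in both lines. The gene had 3 counts in PMC-303 (0.123 CPM) and 1 count in PMC-306 (0.0491 CPM). In the female primary cultures 1 to 3 it had 516, 1237 and 318 counts (23.7, 54.3 and 16.8 CPM), and in the male cultures 1 to 3 it had 463, 315 and 443 counts (23.7, 19.6 and 23.2 CPM). All 6 primary cultures thus lay far above both lines, and 5 of them lay close together while female culture 2 stood apart above them. Relative to the primary mean of 26.9 ± 13.7 CPM (SD, n = 6), the level was 218-fold lower in PMC-303, with a 95% counting interval from 74.5 to 1056, and 547-fold lower in PMC-306, with an interval from 98.3 to 21622. These exact Poisson intervals cover the counting error of the line's count only. With so few counts, the difference between the lines cannot be read.

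Female culture 2, with the highest Plcb4 level, also had the highest summed mast cell markers, 73595 CPM against 46966 to 57727 CPM in the other 5 primary cultures, and the highest summed macrophage markers, 64.6 CPM against 5.78 to 31.2 CPM. Of that sum Adgre1 gave 46.4 CPM and Lyz2 18.0 CPM, with the other 5 markers at or below 0.0879 CPM in this culture. The part of these transcripts in the Plcb4 level was not tested. In bulk RNA, fewer cells with the transcript and less transcript per cell cannot be told apart. Without this culture the log2 ratio of Plcb4 was -6.59 in PMC-303 and -7.17 in PMC-306, compared with -6.92 and -7.50 with it, on the scale of CPM + 0.1.

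The transcripts to which the Plcb4 counts had been assigned were also examined. In the primary cultures a median of 72.6% of the Plcb4 counts, from 48.1% to 86.8%, fell on 3 transcripts that begin at the same exon. These were mainly the protein coding transcript ENSMUST00000110109, with 77.9 to 611 counts, and ENSMUST00000184371, annotated for nonsense-mediated decay, with 64.1 to 225 counts. The first base of this exon is also the start of a later exon in 10 other annotated Plcb4 transcripts, so that the assignment does not locate the start of transcription. The 4 transcripts with upstream starts held 3.46% to 18.8% of the counts, and the 8 with inner starts 9.29% to 47.8%. Neither line had a count on the 3 transcripts of the shared exon. The few counts of the lines fell on upstream and inner transcripts, with 1.10 and 1.91 estimated counts in PMC-303 and 1 upstream count in PMC-306. The annotated Plcb4 locus overlaps the long noncoding genes Gm14209 and Gm74629 on its strand, so that single reads in the lines are uncertain in their origin.

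**Figure D2:**
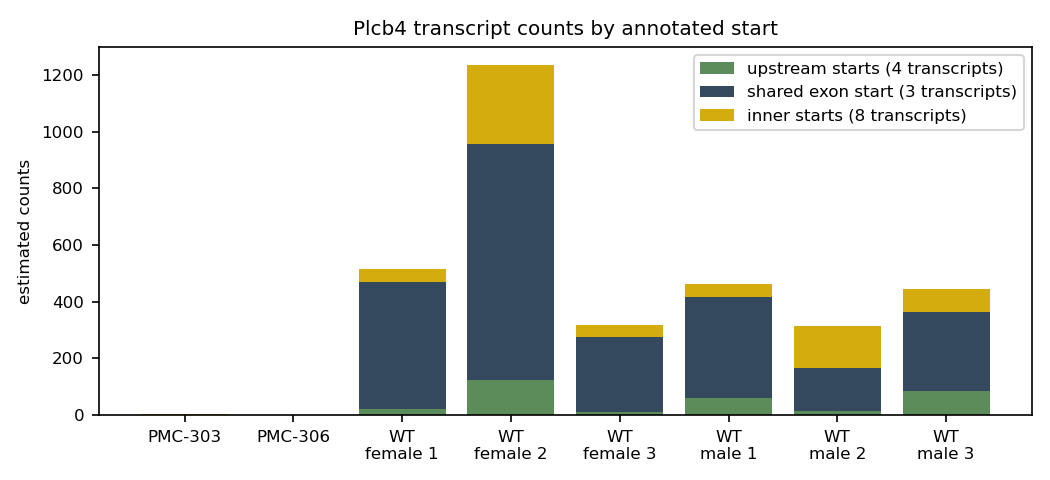
Estimated counts of Plcb4 transcripts in each culture, stacked by the group of annotated starts they belong to. Female culture 2 has 836 counts on the shared exon start and male culture 2 has 152, while both lines are at 0 there.

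The other expressed genes around Plcb4 lay near or above their primary levels. Of 41 genes annotated within 1 Mb of it, 5 reached 1 CPM in a line or as the primary mean, Plcb4 and Plcb1 among them. Mkks, which encodes a chaperonin-like protein, was at 17.3 CPM in PMC-303, 19.5 CPM in PMC-306 and 16.7 ± 1.56 CPM in the primary cultures (SD, n = 6), and the log2 difference of 0.14 between both lines and the primary cultures did not pass the test (limma, adjusted p = 0.386). Slx4ip, whose product binds the nuclease scaffold SLX4, was at 21.4, 17.8 and 17.2 ± 1.33 CPM (adjusted p = 0.247, limma). Gm56450, which overlaps Mkks on the same strand, was at 12.5, 10.2 and 10.7 ± 0.914 CPM (adjusted p = 0.654, limma). In the plot of neighbouring genes only Plcb4 leaves the range between -0.07 and 0.97 on the log2 scale.

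**Figure D3:**
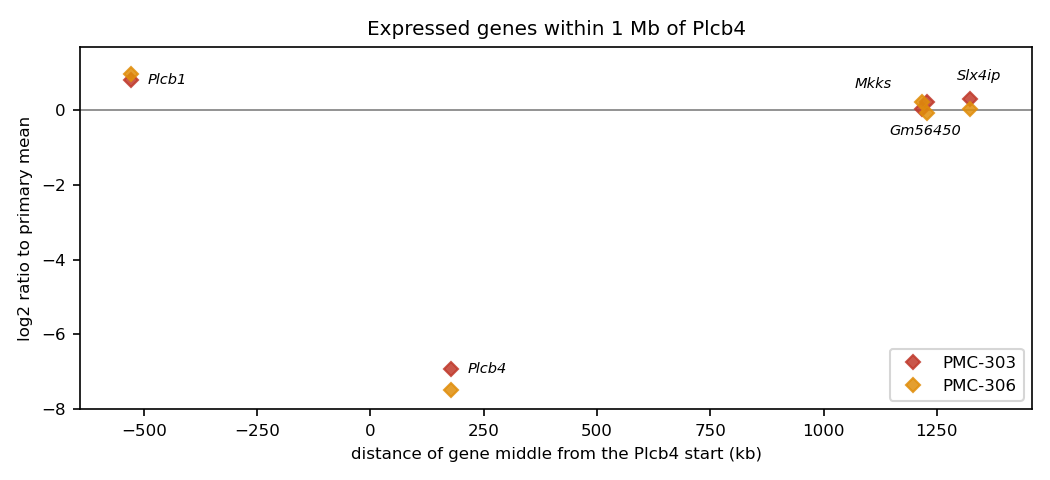
Log2 ratio of each line to the mean of the 6 primary cultures for the 5 expressed genes within 1 Mb of Plcb4, against the distance of the middle of the gene from the Plcb4 start in kb. Plcb1, at -528 kb, lies at 0.81 and 0.97, Plcb4 at -6.92 and -7.50, and Mkks, Gm56450 and Slx4ip lie between -0.07 and 0.31.

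Plcb1, the β isoform next to Plcb4, is activated by Gαq and also found in the nucleus. It was higher in both lines, at 81.4 CPM in PMC-303 and 90.7 in PMC-306. The female primary cultures 1 to 3 had 51.6, 30.6 and 50.7 CPM and the male cultures 59.3, 46.9 and 38.97 CPM. Both lines lay above all primary cultures, with 1.76 and 1.96 times the primary mean of 46.3 ± 10.2 CPM (SD, n = 6). The culture with the highest Plcb4, female culture 2, had the lowest Plcb1. Over the 6 primary cultures the log2 levels of both genes had a Pearson r of -0.76, a description of 6 libraries of which 1 stands apart. The canonical transcript ENSMUST00000110116 took 56.9% of the Plcb1 counts in PMC-303 and 49.3% in PMC-306, compared with 38.6% to 53.0% in the primary cultures. A processed pseudogene, Gm14036, lies within Plcb1 on its strand, so that the assignment of reads between both is uncertain.

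Plcb2, which is activated by Gβγ as well as by Gαq family subunits, was lower in both lines. It was at 95.7 CPM in PMC-303 and 88.4 in PMC-306. In the female cultures 1 to 3 it was at 199, 198 and 190 CPM and in the male cultures at 187, 186 and 182 CPM. The primary cultures hardly differed, with a mean of 190 ± 6.98 CPM (SD, n = 6), and both lines lay at 50.3% and 46.5% of this mean. Plcb2 also lies on chromosome 2, from 118537979 to 118559111 on the reverse strand, far from Plcb4. Its canonical transcript took 74.7% and 74.4% of its counts in the lines, within the primary range of 72.6% to 79.2%.

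Plcb3, a broadly expressed β isoform, was at 49.0 CPM in PMC-303 and 47.4 in PMC-306. The primary cultures ranged from 52.8 to 60.7 CPM around 55.6 ± 3.08 CPM (SD, n = 6). On the CPM scale both lines were below all primary cultures, but at 88.2% and 85.2% of their mean the distance was small. With total counts as library sizes the log2 ratios were -0.09 and -0.11 in place of -0.18 and -0.23, and PMC-303 lay within the primary range. On the TPM scale both lines lay within it, at 17.1 and 18.3 TPM against 15.3 to 21.1 TPM.

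The γ isoforms behaved differently from each other. On the CPM scale Plcg2 was the steadiest member. It was at 152 CPM in PMC-303, 133 CPM in PMC-306 and 151 ± 4.19 CPM in the primary cultures (SD, n = 6). PMC-303 lay within the primary range of 143 to 155 CPM and PMC-306 below it, whereas on the TPM scale both lay within it. With total counts as library sizes Plcg2 lay above the range in PMC-303 and below it in PMC-306. Its coefficient of variation over the primary cultures was 2.78%, and only 1.18% of the genes that averaged 10 CPM or more varied less, while 97.7% of them varied less than Plcb4 at 51.1%. Plcg2 lies on chromosome 8, whose genes had a median log2 ratio of 0.22 in PMC-303, compared with 0.13 for the next highest autosome. The part of this in the Plcg2 level was not tested.

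Plcg1 differed between the lines. It was at 196 CPM in PMC-303 and 419 in PMC-306, which is 2.14 times as much. The female cultures 1 to 3 had 370, 341 and 396 CPM and the male cultures 361, 304 and 277 CPM. PMC-303 was therefore below and PMC-306 above all primary cultures, at 57.4% and 123% of their mean of 341 ± 44.1 CPM (SD, n = 6). As each line was 1 library, the lines were not tested against each other. The canonical transcript took 89.1% and 86.7% of the Plcg1 counts in the lines and 84.1% to 89.1% in the primary cultures.

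The δ and ε members stayed near the detection limit in all cultures. Plcd1 had 1 count in PMC-306 and 0 counts in the other 7 libraries, where 3 counts, the upper limit that a count of 0 allows, are up to 0.187 CPM. Plcd3 had 21 counts in PMC-303 (0.864 CPM), 4 counts in PMC-306 and 0, 0, 3, 0, 0 and 5 counts in the primary cultures. Plce1 had 0 counts in PMC-303, 7 counts in PMC-306 (0.344 CPM) and at most 2 counts in a primary culture. The higher counts of Plcd3 in PMC-303 and of Plce1 in PMC-306 each rest on 1 library.

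Over all genes 14525 were tested by limma in the comparison of both lines with the primary cultures, and 33.8% passed an adjusted p of 0.05. With the scaling used, 18.3% of the genes were called higher and 15.5% lower, that is 2660 and 2254 genes, and with total counts as library sizes 3406 and 1665. The 6 members that passed the filter on low counts included 1 gene called higher, Plcb1, and 2 called lower, Plcb2 and Plcb4. As this comparison chose the family, nothing is read from these counts. On this scale both lines lay below all primary cultures in 20.1% of all genes tested and above them in 22.9%, and for the members this was so for Plcb2, Plcb3 and Plcb4 and for Plcb1, respectively. The lines lay on opposite sides of all primary cultures in 4.39% of the genes, Plcg1 among them. The median log2 difference of the 6 members was -0.22, compared with -0.01 over all genes tested. It comes from the comparison that chose the family, with Plcb4 among the 6, so that nothing is read from it either.

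The make-up of the phospholipase C transcript pool differed accordingly. The TPM values of the 9 isoforms summed to 169 in PMC-303, 257 in PMC-306 and 176 to 266 in the primary cultures. Of this sum Plcg1 made up 36.9% in PMC-303 and 58.5% in PMC-306, below and above the primary range of 41.2% to 49.0%. Plcg2 made up 23.4% and 13.9%, above and below 14.4% to 16.7%. Plcb2 made up 21.2% to 25.2% in the primary cultures, 17.2% in PMC-303 and 11.3% in PMC-306, while Plcb1 made up 12.004% and 8.96% in place of 2.83% to 5.68%. Plcb4 contributed 2.44% to 7.17% in the primary cultures and 0.188% and 0.0470% in the lines, where its TPM rests on 3 counts and 1 count. In all 6 primary cultures Plcb2 exceeded Plcg2 and Plcb3 exceeded Plcb1 per length, and in both lines each of these orders was turned. The ratio of Plcb2 to Plcb1 was 1.43 in PMC-303 and 1.26 in PMC-306, and 3.73 to 8.38 in the primary cultures. All β isoforms together held 39.5% in PMC-303, within the primary range of 36.0% to 42.0%, and 27.4% in PMC-306.

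**Figure D4:**
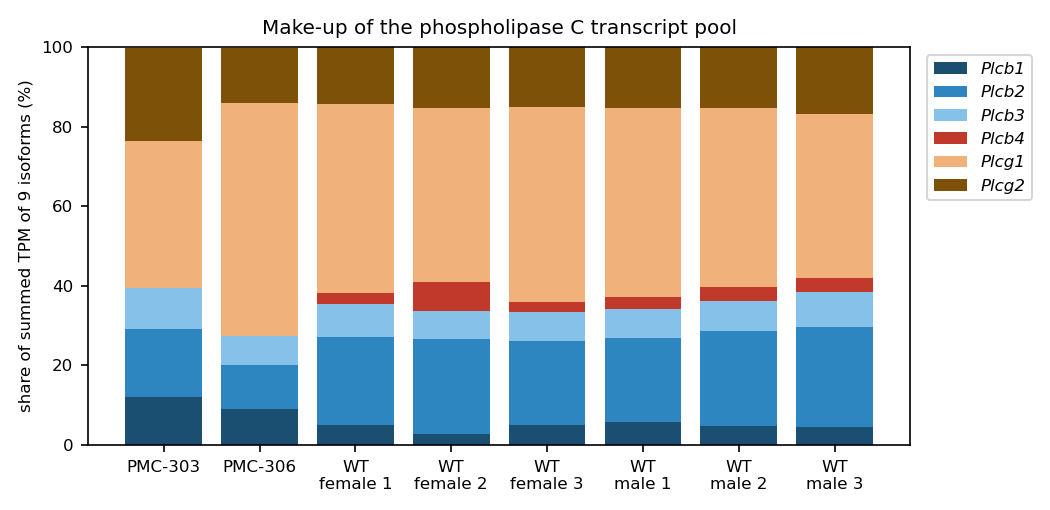
Share of each isoform in the summed TPM of the 9 phospholipase C genes, in percent, for each of the 8 cultures; Plcd1, Plcd3 and Plce1 are too low to be seen. The red Plcb4 segment, 2.44% to 7.17% in the primary cultures, is too thin to be seen in both lines, Plcg1 holds 58.5% in PMC-306 and 36.9% in PMC-303, and Plcb1 holds more in both lines than in each primary culture.

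Female and male primary cultures offered a comparison that was not used to choose the family. None of the 6 isoforms tested differed by limma (adjusted p = 1.00 for each). In this comparison 6 of 13693 genes passed, which is 0.0438%, and 456 had an unadjusted p under 0.05, none of the isoforms among them. Plcg1 was at 369 ± 27.2 CPM in female and 314 ± 43.0 CPM in male cultures (SD, n = 3 each), a log2 difference of 0.24 with a 95% interval from -0.04 to 0.52. Plcb4 was at 31.6 ± 19.99 CPM in female and 22.2 ± 2.24 CPM in male cultures. Its log2 difference of 0.33 had an interval from -0.62 to 1.29 and was -0.15 without female culture 2, so that a difference of this size in either direction could not be seen with these cultures. For Plcb2 and Plcg2 the intervals were narrow, from -0.06 to 0.22 and from -0.09 to 0.19, for Plcb3 from -0.04 to 0.28, and for Plcb1 from -0.72 to 0.43.

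The genes whose log2 levels ran most closely with Plcb4 over the 8 cultures, among 9920 genes that averaged 5 CPM or more in primary cells, were Gm47547, Snx19, Arhgef25, Gstt2 and Trim8. Their Pearson r was between 0.993 and 0.997, a description in which the gap between lines and primary cultures sets most of the value. Over the 6 primary cultures alone r was 0.92 for Gm47547 and 0.91 for Snx19, and between 0.71 and 0.76 for the other 3. Gm47547 was at 1.54 CPM in PMC-303, 0.882 CPM in PMC-306 and 23.4 ± 4.81 CPM in the primary cultures (SD, n = 6). Snx19, which encodes a sorting nexin, was at 42.0 CPM in each line and 55.3 ± 1.46 CPM in the primary cultures, so that a close course did not mean a loss of the same size.

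The genes that feed and follow phospholipase C were described from 6 lists with 100 genes, of which 85 were tested. Of these 33 were called in the comparison of both lines with the primary cultures, 10 higher and 23 lower, beside 33.8% called among all genes. The shares over all genes tested were 18.3% higher and 15.5% lower. The median log2 difference was -0.18 over the 85 and -0.01 over all genes. With total counts as library sizes 10 were called higher and 13 lower. Without PMC-306, which leaves PMC-303 alone and assumes that it varies like the primary cultures, 20 were called, 8 higher and 12 lower. Of the 33, 8 were called under every setting tried (Daglb, Dgkq, Gnb2, Impa2, Itpr1, Pitpnc1, Rasgrp1 and Syk).

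None of the 3 tested genes related to phospholipase C passed the test. Plcl2, a catalytically inactive relative, was at 74.5 CPM in PMC-303, 89.5 CPM in PMC-306 and 76.9 ± 5.94 CPM in the primary cultures (SD, n = 6). Its relative Plcl1 had 8 counts in PMC-303 and 47 in PMC-306, at 0.329 and 2.31 CPM against 0.238 ± 0.252 CPM (adjusted p = 0.124, limma), and was called higher without PMC-303, with a log2 difference of 3.13 (adjusted p = 0.0470, limma). Plcxd2 stayed between 1.48 and 2.45 CPM in all cultures.

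G protein subunits and their regulators lie upstream of the β enzymes. Among them 4 of 20 were called, 3 higher and 1 lower, beside 18.3% higher and 15.5% lower over all genes tested. Rgs13, a mast cell regulator that quenches Gα signals, was at 478 CPM in PMC-303, 357 CPM in PMC-306 and 138 ± 55.1 CPM in the primary cultures, a log2 difference of 1.67 ± 0.37 (SE; limma, adjusted p = 0.00911). The call for Rgs13 was lost without PMC-303 (adjusted p = 0.0689, limma). Gnb2 and Gng2, a β and a γ subunit, rose by 0.43 and 0.44 on the log2 scale, and Gna14, a Gαq family member, fell by 0.49. For Gng2 the call was lost without PMC-306 and without any of 4 primary cultures, and for Gna14 without PMC-306. Gnaq itself was at 25.8 and 23.6 CPM in the lines and 24.6 ± 7.51 CPM in the primary cultures.

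Of 17 tyrosine kinases and adaptors that lead to the γ enzymes 7 were called, all lower in the lines. Over all genes tested 33.8% were called, 15.5% of them all being lower in the lines. Syk, the kinase that binds the phosphorylated FcεRI, was at 123 CPM in PMC-303, 127 CPM in PMC-306 and 193 ± 8.57 CPM in the primary cultures, a log2 difference of -0.63 ± 0.07 (SE; limma, adjusted p = 0.000266). Tec, a kinase that phosphorylates phospholipase Cγ, fell by 0.74 and the adaptor Sh3bp2 fell by 0.64 on the log2 scale, but each call was lost in a fit without 1 of the lines. The adaptor Lat, to which phospholipase Cγ1 binds, was at 232 CPM in PMC-303, 164 CPM in PMC-306 and 257 ± 41.6 CPM in the primary cultures and did not pass (adjusted p = 0.124, limma). With total counts as library sizes 4 of the 17 were called lower and none higher.

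Of 18 genes for the synthesis of PIP2, the substrate, 8 were called, 2 higher and 6 lower, but 3 without PMC-306 (1 higher, 2 lower), and 5 without PMC-303 or with total counts as library sizes. For the 8 of 18, the shares over all genes tested were 18.3% higher and 15.5% lower. Pitpnc1, a lipid transfer protein, fell from 54.6 ± 9.88 CPM in the primary cultures to 29.5 CPM in PMC-303 and 24.2 in PMC-306. Its log2 difference was -1.01 ± 0.18 (SE, limma, adjusted p = 0.00359). Cdipt, which makes phosphatidylinositol, fell by 0.57 and Pip5k1c, which makes PIP2, fell by 0.42. Pi4k2b, a phosphatidylinositol 4-kinase, rose by 0.59 and the transfer protein Pitpnb by 0.28 on the log2 scale. Of these 5, Pitpnc1 alone was called both without PMC-303 and without PMC-306.

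In the IP3 branch 5 of 10 were called, 3 higher and 2 lower, beside 18.3% higher and 15.5% lower over all genes tested. Impa2, an inositol monophosphatase that recycles inositol, was at 11.6 CPM in PMC-303, 11.0 CPM in PMC-306 and 1.22 ± 0.328 CPM in the primary cultures, a log2 difference of 3.15 ± 0.29 (SE; limma, adjusted p = 0.000161). Its relative Impa1 rose by 0.38, a call lost without PMC-303, and the inositol kinase gene Ipmk by 0.46. The IP3 receptor gene Itpr1 was at 55.5 CPM in PMC-303, 86.1 CPM in PMC-306 and 124 ± 9.86 CPM in the primary cultures and fell by 0.84 on the log2 scale (adjusted p = 0.00391, limma). The more abundant Itpr2 was at 514, 412 and 524 ± 35.3 CPM and did not pass. Inpp5a, which removes a phosphate from IP3, fell by 0.91, but this call was lost when any 1 of the primary cultures or PMC-306 was left out.

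In the DAG branch 9 of 17 were called, 2 higher and 7 lower, but 4 without PMC-306 (2 higher, 2 lower), and 6 without PMC-303 or with total counts as library sizes. For the 9 of 17, the shares over all genes tested were 18.3% higher and 15.5% lower. Rasgrp1, a Ras activator that binds DAG, was at 56.2 CPM in PMC-303, 62.2 CPM in PMC-306 and 13.6 ± 4.30 CPM in the primary cultures. Its log2 difference was 2.18 ± 0.30 (SE, limma, adjusted p = 0.00100). Prkcq, which encodes protein kinase Cθ, was at 77.8 and 39.2 CPM in the lines and 18.9 ± 6.64 CPM in the primary cultures, and rose by 1.64, a call that was lost without PMC-303 (adjusted p = 0.179, limma). Dgki, a kinase that converts DAG, fell by 1.25, the kinase gene Prkd2 by 0.95 and Daglb, a DAG lipase, by 0.77 on the log2 scale. The call for Dgki was lost without PMC-306 and that for Prkd2 without PMC-303 as well as without PMC-306.

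**Figure D5:**
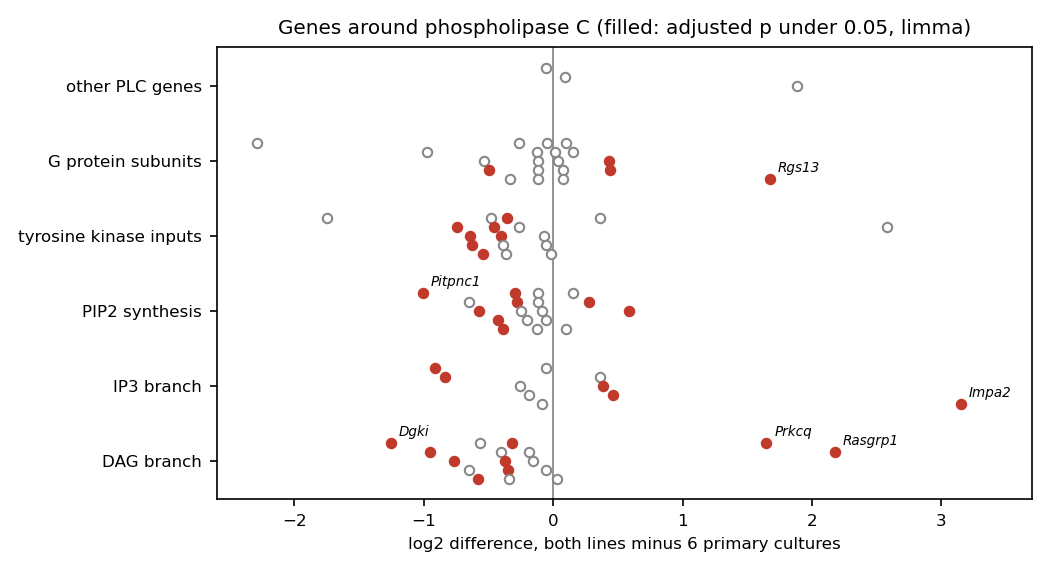
Log2 difference between both lines and the 6 primary cultures for the 85 tested genes around phospholipase C, in 6 lists, with 1 point per gene and filled points for an adjusted p under 0.05 by limma. All 7 filled points among the tyrosine kinase inputs lie below 0, and Impa2 at 3.15 and Rasgrp1 at 2.18 lie farthest to the right among the filled points.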

How the data were processed

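RNA from 8 cultures was sequenced by the authors as stranded total RNA libraries. Per the labels, reads were processed with Trim Galore 0.6.7, STAR 2.7.9a, Salmon 1.5.2 and the build GRCm39. Estimated counts of genes and transcripts, not normalized, and TPM of genes were deposited by the authors. A spreadsheet program had rewritten 3.37% of the gene count cells and 3.22% of the transcript count cells, which were restored. Genes then differed from the sum of their transcripts by at most 1.53 counts. As deposited, these tables were not treated as count tables, so that no count model was used. The position of the point in altered TPM cells was set to fit the counts, and TPM columns summed to between 991252 and 998660.

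CPM were computed from TMM-scaled library sizes, and log2(CPM + 0.1) was tested with limma 3.58.1 in R 4.3.3, with a trend of variance on mean and p adjusted after Benjamini and Hochberg over all genes with about 10 counts in enough libraries and 15 in all. Scripts were tested on simulated data. Restoration and figures used Python 3.11.15, pandas 2.3.3, numpy 2.4.6, matplotlib 3.10.9 and scipy 1.17.1. The members, lists and alternatives were chosen with earlier results of these data known. Named genes were all members, up to 3 called genes per list and direction with the largest difference, expressed genes within 1 Mb of Plcb4 and the 5 genes most like it. Gnaq, Lat, Itpr2, Dgkq, Plcl1, Plcl2 and Plcxd2 were named after their values were seen. Positions and transcripts come from GENCODE M39.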

Additional observations from a re-analysis of the deposited data

Results flagged for a closer look

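Over the 6 primary cultures, Plcb4 at 54.3 CPM in female culture 2 lay farther from the other 5 than a test for a single distant value allows, with the others between 16.8 and 23.7 CPM. Plcg2 at 143 CPM in male culture 2 was likewise distant, although the other 5 lay between 151 and 155 CPM and the distance is small. Chance marks about 1 in 20 groups in this way, and 7 were looked at.

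Plcg1 left the primary range in opposite directions, with a log2 ratio of -0.80 in PMC-303 and 0.29 in PMC-306. The difference between the lines was not tested, as each is 1 library.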

How the results depend on the processing

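The directions of Plcb1, Plcb2, Plcb3, Plcb4 and Plcg1 in each line held under every setting tried. Total counts as library sizes gave log2 ratios in PMC-303 and PMC-306 of -0.90 and -0.98 for Plcb2, -0.088 and -0.106 for Plcb3, and 0.106 and -0.055 for Plcg2. TPM gave -0.89 and -0.90 for Plcb2, -0.100 and -0.0061 for Plcb3, -4.42 and -5.34 for Plcb4, and 0.124 and -0.021 for Plcg2, and moved the median of all genes by 0.11 in PMC-303 and 0.16 in PMC-306. For Plcb4, which has 3 counts and 1 count in the lines, an offset of 0.5 CPM gave -5.46 and -5.64 and an offset of 1 CPM -4.63 and -4.73, since the offset exceeds the level in the lines. Between sexes, leaving out 1 culture gave log2 differences from -0.29 to 0.10 for Plcb1, with 0.10 without female culture 2 and 0.01 without male culture 1. The same gave -0.15 to 0.70 for Plcb4, with -0.15 without female culture 2. Against female cultures only, 2158 genes and 9 of the 85 listed genes were called, and against male cultures only 3027 and 14, each with fewer samples. Leaving out 1 library gave 3851 to 4656 genes and 20 to 31 listed genes, the lowest without PMC-306.

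With the replicate number as a block (replicate block), 5 genes differed between sexes in place of 6, and no isoform did (Plcb4 0.33, Plcg1 0.24). Deviations of cultures with the same number correlated at 0.40, -0.22 and 0.28, so that the numbers were not taken to pair the cultures, and not every culture correlated best with its own number. The depth limits Plcb4 in the lines, Plcd1, Plcd3 and Plce1, all with few counts. The lines have no replicates, and culture medium and transformation cannot be told apart.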
